A study of Mus musculus with 22 samples.

Results

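The 76 genes described here encode proteins of the cytosolic ribosome. They are the rows of a raw count table whose symbols are Rpl or Rps followed by a number and at most one of the letters a, x and y, together with Rpsa, Rplp0, Rplp1 and Rplp2. Pseudogene rows and the Rps6k kinases were left out, and 76 of the 44749 entries of the table met the rule, 46 for the large and 30 for the small subunit. RNA came from male mouse embryonic stem cells (ESCs), pluripotent cells of the inner cell mass, of 129 background, grown without feeder cells in serum and LIF. Ythdc1 is a protein of the nucleus that binds mRNA at m6A, a methyl mark on adenosine. Cells with a conditional knockout (cKO) of Ythdc1 were treated with 4OHT, a ligand that switches on inducible Cre recombinases, or were given DMSO (n = 4 libraries each, 2 ESC lines together). Further groups were labelled Mettl3 WT and Mettl3 KO (n = 2 each; Mettl3 is the catalytic subunit of the m6A writer), and Ythdc1 cKO with Dux-Het or Dux-KO under DMSO or 4OHT (n = 2 each; Dux is a transcription factor of the early embryo). A last pair carries no Dux label (Ythdc1 cKO, 1 library under DMSO and 1 under 4OHT). Cells without the conditional allele under 4OHT are not among the libraries analysed here, so 4OHT itself and loss of Ythdc1 cannot be told apart.

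A ribosome joins a small subunit, which decodes the mRNA, to a large subunit, which forms the peptide bond and holds the exit tunnel. Most of its proteins are present in equal copy number, and mRNAs of most of these genes start with a run of pyrimidines, the 5′ terminal oligopyrimidine (5′TOP) motif, through which mTOR signalling and the protein Larp1 set their translation and stability. Free Rpl5 and Rpl11, joined to 5S rRNA, bind Mdm2 and thereby stabilise p53. Many snoRNAs, the guides of rRNA modification, lie in introns of ribosomal protein genes.

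Libraries held 24955414 to 54139132 counts. Levels are given as CPM, counts scaled to library size with TMM factors over all libraries, and a gene rose or fell where edgeR's quasi-likelihood test gave a Benjamini-Hochberg adjusted p under 0.05 over all entries tested. Within the Ythdc1 set, library 1 under DMSO was unlike libraries 2 to 4: chi-square over its degrees of freedom was 31.0 to 37.1 in pairs with library 1 and 8.44 to 10.8 in the other pairs. Ythdc1 itself held 80.2, 70.8, 73.7 and 77.9 CPM under DMSO and 62.8, 49.0, 61.2 and 51.8 CPM under 4OHT (log2 fold change -0.41, adjusted p = 0.00064). In Dux-Het cells it held 58.9 and 86.5 CPM under DMSO against 52.2 and 65.9 CPM under 4OHT (adjusted p = 0.456), and in Dux-KO cells 49.7 and 71.3 against 53.9 and 56.6 CPM (adjusted p = 0.843), so the transcript level does not check these labels. In the Mettl3 set Ythdc1 rose from 81.7 and 83.6 CPM in WT to 136 and 154 CPM in KO libraries (0.82, adjusted p = 0.000236). Mettl3 held 29.0 and 29.9 CPM in the WT libraries and 14.5 and 28.4 CPM in those labelled KO. It did not pass (log2 fold change -0.44, adjusted p = 0.207), so its transcript level does not check the label of the second KO library. All 10 ESC markers were detected in every library, with a summed level of 1999 to 2345 CPM under DMSO and 1493 to 1773 CPM under 4OHT in the Ythdc1 set. Of 10 fibroblast and feeder markers 8 to 10 were detected in each group, and they summed to 57.1 to 278 CPM over all libraries, the 6 neural markers to 39.8 to 169.8 CPM and the 6 primitive endoderm markers to 5.65 to 22.4 CPM. Fibroblast markers were higher under 4OHT in the Ythdc1 set (205 to 278 CPM, against 103 to 149 under DMSO), and primitive endoderm markers likewise (14.8 to 22.4 against 9.65 to 13.3 CPM), and their part in the results was not tested. ESC markers of the Mettl3 set summed to 1781 to 1787 CPM in WT and 1462 to 1480 CPM in KO libraries, fibroblast markers to 143 to 147 and 57.1 to 123 CPM, and neural markers to 106 to 111 and 39.8 to 67.7 CPM. Fewer cells of a type and less RNA per cell cannot be told apart in these bulk libraries.

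The start regions of 5 members are shown as examples, picked after their values were seen, of members that fell (Rpl11, Rpl10a), rose (Rps12, Rps27) or did neither (Rpl13) in the Ythdc1 set. Of the 76 members, 56 matched an entry of the RefSeq start table (build GRCm38.p6, 66 starts). A run of at least 7 bases that starts with C and holds only C or T, on the strand of the gene and within 30 bases to either side of an annotated start, was found in 35 of the 56 (62.5%), against 29.7% of 27025 genes of the table. The 60 bases around the start are written 5′ to 3′ on the strand of the gene, with the longest such run in capitals. They lie at chr4:136053364-136053423 (minus strand) for Rpl11, chr17:28328535-28328594 (plus) for Rpl10a, chr10:23787180-23787239 (minus) for Rps12, chr3:90213619-90213678 (minus) for Rps27 and chr8:123102320-123102379 (plus) for Rpl13.
Rpl11: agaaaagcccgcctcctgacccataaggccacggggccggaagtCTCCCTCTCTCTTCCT
Rpl10a: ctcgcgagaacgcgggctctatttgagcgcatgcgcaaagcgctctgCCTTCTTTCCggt
Rps12: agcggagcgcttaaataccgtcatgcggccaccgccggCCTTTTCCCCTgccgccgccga
Rps27: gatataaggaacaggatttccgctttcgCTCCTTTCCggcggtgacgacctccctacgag
Rpl13: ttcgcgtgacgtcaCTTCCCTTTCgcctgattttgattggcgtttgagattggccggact
The run spans 16 bases in Rpl11, 11 in Rps12, 10 in Rpl10a and Rpl13 and 9 in Rps27. It begins at base 15, 9 and 18 in Rpl11, Rps12 and Rpl10a, counting the annotated start as base 1, and 2 and 16 bases upstream of the start in Rps27 and Rpl13. The window and the length were chosen after a stricter search had been seen: a C followed by 4 pyrimidines exactly at the start stood at 19.7% of the 66 member starts and 2.51% of 32851 starts in the table, and within 5 bases of the start at 43.9% and 18.3%. The run was present in 17 of 29 matched members that fell in the Ythdc1 set, 4 of 4 that rose and 14 of 23 that did not pass. These matches describe letters in a window, not transcript ends of these cells.

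Under 4OHT, and in the libraries labelled Mettl3 KO, counts of the large subunit genes were lower relative to those of the small subunit genes than in the matched controls. The summed counts of the 46 large subunit genes were 1.33, 1.31, 1.30 and 1.27 times those of the 30 small subunit genes in the Ythdc1 cKO libraries under DMSO. Under 4OHT the ratio was 1.19, 1.20, 1.18 and 1.15. The 4 libraries under 4OHT were all below the 4 under DMSO, and their mean ratio differed by -9.42%. The Mettl3 set had ratios of 1.52 and 1.50 in WT and 1.38 and 1.36 in KO libraries. In Dux-Het cells the ratio was 1.51 and 1.44 under DMSO and 1.35 and 1.28 under 4OHT. In Dux-KO cells it was 1.50 and 1.57 under DMSO and 1.34 and 1.36 under 4OHT, and the pair with no Dux label held 1.54 under DMSO and 1.36 under 4OHT. The ratio is taken within a library and so does not depend on scaling, and as a score over the members it received no test. Without Rpl3, the member with the largest fall in the Ythdc1 set, the difference in the Ythdc1 set was -8.17%. With the median CPM of each subunit in place of the sums the Ythdc1 groups overlapped: the second 4OHT library held 0.851, above DMSO libraries 1, 3 and 4 at 0.831, 0.842 and 0.801. By medians the Dux-KO groups overlapped too, at 0.848 and 1.001 under DMSO and 0.845 and 0.875 under 4OHT. The Mettl3 and Dux-Het groups did not overlap.

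**Figure D1:**
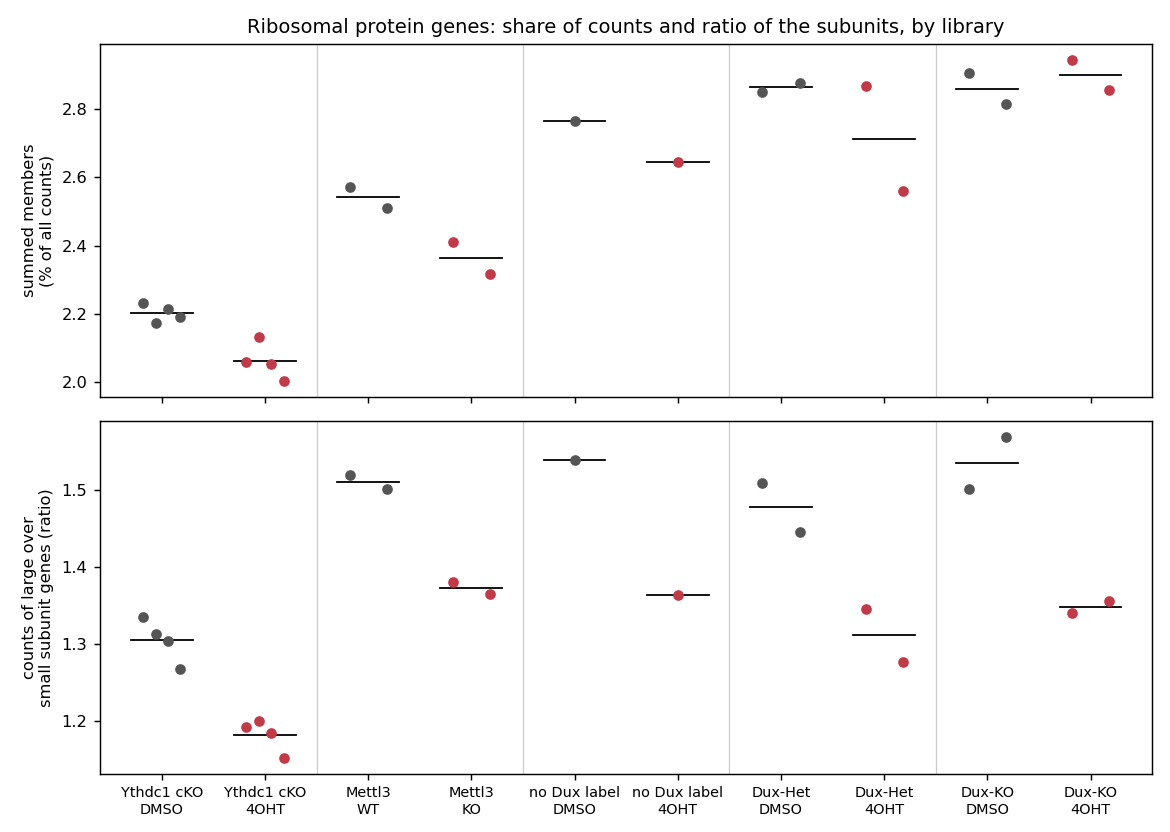
Each point is 1 library and each line a group mean, with red for 4OHT or Mettl3 KO and grey for the controls; the upper panel gives the summed counts of the 76 genes in percent of all counts, the lower panel the ratio of large to small subunit counts, and neither axis starts at 0. The ratio was 1.15 to 1.20 under 4OHT and 1.27 to 1.33 under DMSO in the Ythdc1 set, while the share in Dux-KO cells overlapped between treatments.

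The share of all counts held by the 76 genes did not follow the same pattern in every set. It was 2.23, 2.17, 2.21 and 2.19% in the Ythdc1 cKO libraries under DMSO and 2.06, 2.13, 2.05 and 2.00% under 4OHT, with no overlap. The same total includes entries that match no gene symbol of the annotation, repeat families among them. These unmatched entries held 23.0 ± 1.18% under DMSO and 27.9 ± 0.734% under 4OHT (SD, n = 4 each). In percent of gene counts alone, those of the matched entries, the members held 2.86 ± 0.0298% under DMSO and 2.86 ± 0.0549% under 4OHT. The lower share of all counts was thus seen only with the unmatched entries in the total. The share was 2.57 and 2.51% in Mettl3 WT and 2.41 and 2.32% in KO libraries, and in percent of gene counts it was also lower in KO (3.27 ± 0.0314%, against 3.48 ± 0.0529%, SD, n = 2 each). In Dux-Het cells the share was 2.85 and 2.87% under DMSO and 2.87 and 2.56% under 4OHT. In Dux-KO cells it was 2.90 and 2.81% under DMSO and 2.94 and 2.86% under 4OHT. Both Dux pairs of groups overlapped in the share of all counts. In percent of gene counts the Dux-KO libraries held 3.47 and 3.55% under DMSO and 3.87 and 3.78% under 4OHT, with no overlap, and the Dux-Het libraries held 3.50 and 3.64% against 3.79 and 3.41%, which overlapped.

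In the Ythdc1 set 36 of the 76 genes fell under 4OHT and 5 rose, and the genes that rose were all of the small subunit. All 76 genes passed the filter on low counts. Over all 24385 entries tested, 21.4% fell and 23.7% rose. Of the large subunit genes 30 of 46 fell, none rose and 16 did not pass (median log2 fold change -0.20). Of the small subunit genes 6 of 30 fell, 5 rose and 19 did not pass (median -0.02). The median was -0.14 over all members and 0.02 over all entries tested. Over the members, log2 fold changes ran from -0.56 to 0.38. All 4 libraries under 4OHT were below all 4 under DMSO in 42 members (20.7% of all entries) and above them in 4 (20.9% of all entries).

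**Figure D2:**
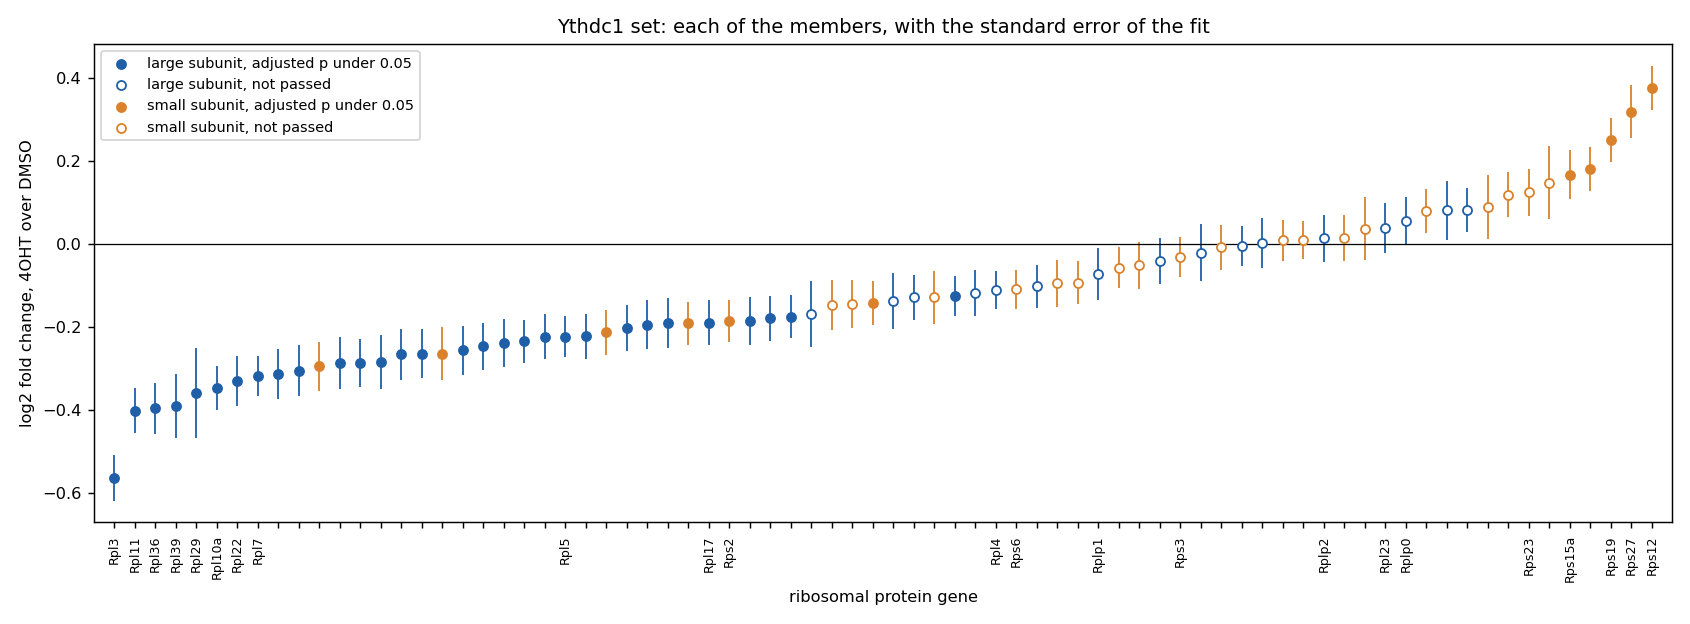
Log2 fold change of each of the 76 genes, 4OHT over DMSO (n = 4 each), in order of size, with the standard error of the fit as a bar; blue is the large and orange the small subunit, and filled points passed the threshold on the adjusted p. Rpl3 stands lowest at -0.56, and the 5 filled points above 0 are all orange (names are given only for members described in the text).

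Rpl3, a core large subunit protein that reaches toward the peptidyl transferase centre (chromosome 15, 80077791 to 80091868 on mm10), had the largest fall of all members. It held 712, 705, 753 and 696 CPM under DMSO and 474, 503, 491 and 442 CPM under 4OHT. The groups were far apart (log2 fold change -0.56, SE 0.0547, adjusted p = 5.05e-07). Rpl3 was also lower under 4OHT in the other Ythdc1 cKO libraries: it held 940.4 and 891 CPM in Dux-Het cells under DMSO against 595 and 594 CPM under 4OHT, and 1237 and 869 CPM in Dux-KO cells against 729 and 553 CPM. The change passed in Dux-KO cells (log2 fold change -0.68, adjusted p = 0.0463) but not in Dux-Het cells (-0.60, adjusted p = 0.0701). Rpl3 of the Mettl3 set held 620.4 and 646 CPM in WT and 579 and 578 CPM in KO libraries, a difference that did not pass (-0.11, adjusted p = 0.225). The Ythdc1 effect on Rpl3 was below the Mettl3 effect by the test of the difference itself (-0.41, SE 0.0894, adjusted p = 0.00205).

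Rpl11, of the 5S particle that binds Mdm2 (chromosome 4, 136028265 to 136053428), held 164, 156, 164 and 161 CPM under DMSO and 117, 128, 121 and 115 CPM under 4OHT. No libraries overlapped (log2 fold change -0.40, SE 0.0536, adjusted p = 1.47e-05). Rpl5, its partner, fell by 0.22 on the log2 scale (adjusted p = 0.00169). Rpl23, which also binds Mdm2, held 130.1 to 148 CPM under DMSO and 135 to 147 CPM under 4OHT and did not pass (log2 fold change 0.04, adjusted p = 0.631). Rpl11 also fell in the Mettl3 set, from 189 and 170.0 CPM in WT to 142 and 139 CPM in KO libraries (-0.34, adjusted p = 0.0132), while Rpl5 (-0.12, adjusted p = 0.235) and Rpl23 (-0.01, adjusted p = 0.942) did not pass. Mdm2 itself rose in both sets, with log2 fold changes of 1.85 in the Ythdc1 and 0.55 in the Mettl3 set.

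Among the other large subunit genes with the largest falls, Rpl36 held 85.8, 74.8, 82.8 and 77.4 CPM under DMSO and 57.5, 62.6, 60.4 and 59.7 CPM under 4OHT (log2 fold change -0.40, adjusted p = 7.33e-05). Rpl39, a short protein of the exit tunnel wall encoded on the X chromosome, held 27.1, 26.7, 25.8 and 26.0 CPM against 21.3, 19.8, 20.3 and 17.8 CPM (-0.39, adjusted p = 0.000613). Rpl29 held 44.3, 35.3, 42.8 and 37.3 CPM against 34.5, 34.6, 24.1 and 29.4 CPM (-0.36, adjusted p = 0.013). In each of the 3 genes every library under 4OHT was below every library under DMSO, with the narrowest gap in Rpl29. Rpl10a, whose protein lies in the L1 stalk at the tRNA exit site (chromosome 17, 28328471 to 28331033), held 606, 563, 589 and 551 CPM under DMSO and 433, 477, 454 and 424 CPM under 4OHT (-0.35, adjusted p = 6.75e-05). Rpl7 (-0.32, adjusted p = 5.43e-05) and Rpl22 (-0.33, adjusted p = 0.000266), which both have a paralog that the naming rule leaves out, fell as well. At the exit tunnel Rpl17 fell (-0.19, adjusted p = 0.00826), and Rpl4 did not pass (-0.11, adjusted p = 0.0637) except with other scalings, such as the size factors of DESeq2 (adjusted p = 0.0469). The 3 genes of the P stalk, which recruits translation factors, did not pass: log2 fold changes were 0.06 for Rplp0, -0.07 for Rplp1 and 0.01 for Rplp2.

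Rps12 (chromosome 10, 23785183 to 23787275) had the largest rise in the Ythdc1 set. It held 397, 364, 371 and 396 CPM under DMSO and 494, 500.0, 467 and 494 CPM under 4OHT. All libraries under 4OHT were above those under DMSO (log2 fold change 0.38, SE 0.053, adjusted p = 2.43e-05). Rps27 (chromosome 3, 90212522 to 90213651) held 102, 88.3, 88.3 and 86.2 CPM under DMSO and 121, 109, 112 and 107 CPM under 4OHT (0.32, SE 0.0641, adjusted p = 0.000678). Its first DMSO library was higher than the other 3 but below all 4OHT libraries. Rps19, the gene most often mutated in Diamond-Blackfan anaemia, held 188, 179, 189 and 190.0 CPM against 224, 214, 224 and 212 CPM (0.25, adjusted p = 0.000943). Rps15a (0.17, adjusted p = 0.0278) also rose, and its libraries overlapped between the groups. With no filter on low counts Rps15a did not pass (0.16, adjusted p = 0.0611).

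Of the other small subunit genes, 4 have roles at the decoding site and the mRNA channel. Rps2 held 1170.2, 1153, 1196 and 1259 CPM under DMSO and 975, 1063, 1054 and 1049 CPM under 4OHT and fell (log2 fold change -0.19, adjusted p = 0.00698). Rps3 (-0.03, adjusted p = 0.634), Rps15 (-0.09, adjusted p = 0.162) and Rps23 (0.12, adjusted p = 0.0818) did not pass. Rps6, the substrate of S6 kinases downstream of mTOR, did not pass (-0.11, adjusted p = 0.0658), although its libraries did not overlap (669.8 to 692 CPM under DMSO, 604 to 636 CPM under 4OHT). With the size factors of DESeq2 it passed edgeR's test (adjusted p = 0.0477). Rps27a, made as a fusion with ubiquitin, did not pass either (0.08, adjusted p = 0.235).

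**Figure D3:**
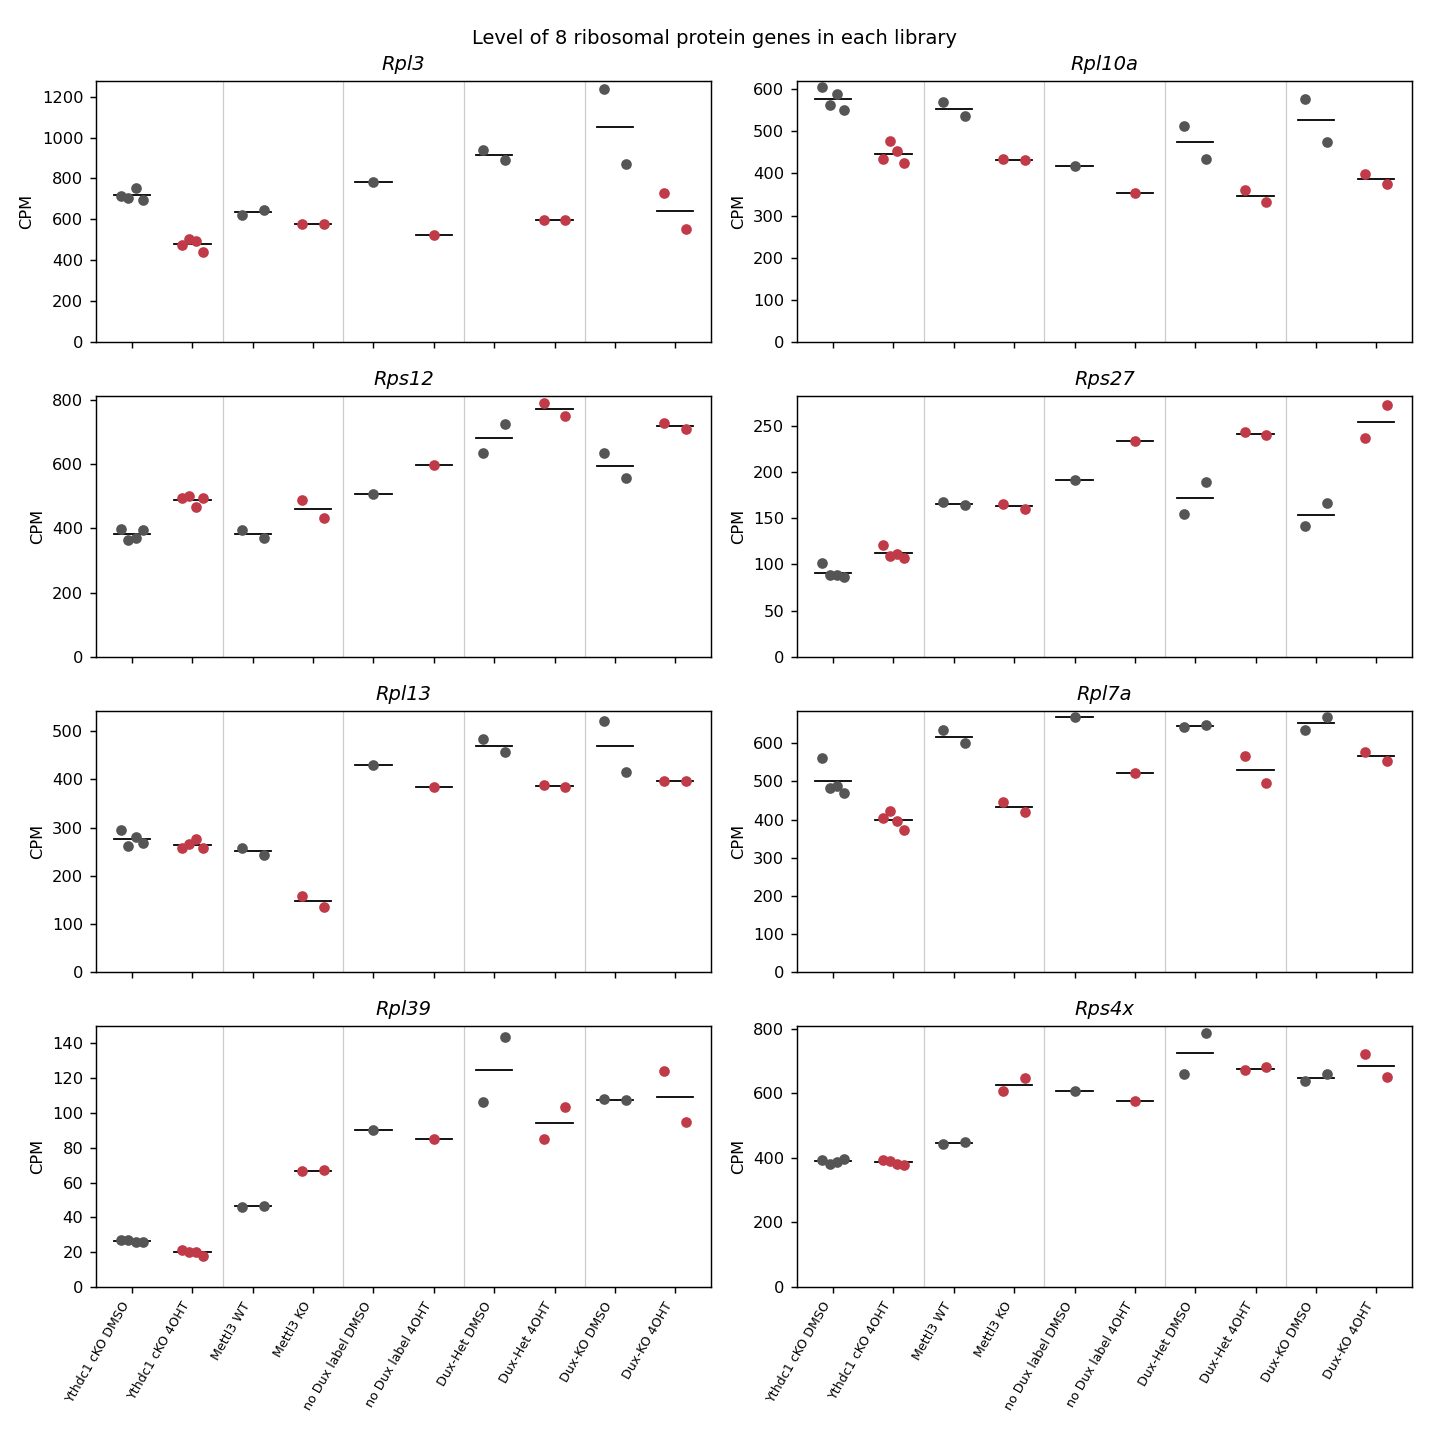
CPM of 8 genes in each of the 22 libraries, with 1 point per library and a line for the group mean; red marks 4OHT or Mettl3 KO, and each axis starts at 0. Rpl3 sits lower and Rps27 higher under 4OHT in all Ythdc1 cKO sets, whereas Rpl13, Rpl39 and Rps4x stand apart most clearly between the Mettl3 groups.

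In the Mettl3 set 23 members fell and 4 rose, and 49 did not pass. Over all 23977 entries tested 14.9% fell and 16.4% rose. Of the large subunit genes 18 of 46 fell and 2 rose (median log2 fold change -0.15), and of the small subunit genes 5 of 30 fell and 2 rose (median -0.05). The median was -0.12 over all members and 0.02 over all entries. None of the 27 calls was kept under every choice of 3 of the 4 libraries: without WT library 1 no member passed, and without KO library 1 and KO library 2 it was 41 and 36 that fell. The libraries are named as labelled, since Mettl3 transcripts did not fall in the second KO library.

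Rpl13 (chromosome 8, 123102350 to 123105244) had the largest fall in the Mettl3 set, from 258 and 242 CPM in WT to 158 and 134 CPM in KO libraries (log2 fold change -0.76, SE 0.0947, adjusted p = 0.000418). In the Ythdc1 set it held 261 to 294 CPM under DMSO and 257 to 276 CPM under 4OHT, which overlapped. Rpl7a fell from 634 and 600.2 to 445 and 419 CPM (-0.50, adjusted p = 0.000834). Rpl32 fell from 386 and 378 to 273 and 270.4 CPM (-0.48, adjusted p = 0.000981), and Rps13 from 50.7 and 51.5 to 37.7 and 35.9 CPM (-0.46, adjusted p = 0.00687). In these 4 genes both KO libraries were below both WT libraries. The genes were picked as large falls that passed in these same libraries, so this does not check the label of the second KO library. At the exit tunnel Rpl4 fell by 0.26 (adjusted p = 0.0122) and Rpl17 by 0.26 (adjusted p = 0.0207) on the log2 scale. In the P stalk Rplp1 came nearest to the threshold (-0.29, adjusted p = 0.063).

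The 4 members that rose in the Mettl3 set were Rpl39, Rps4x, Rpl41 and Rps12. Rpl39 held 45.9 and 46.7 CPM in WT and 66.6 and 67.2 CPM in KO libraries (log2 fold change 0.55, SE 0.0919, adjusted p = 0.00201). Rps4x, an X-linked gene of the small subunit (102184941 to 102189394), held 442 and 448 CPM against 608 and 647 CPM (0.51, SE 0.069, adjusted p = 0.000631). Rpl41, which encodes the shortest protein of the ribosome, held 270.4 and 253 CPM against 369 and 314 CPM (0.40, adjusted p = 0.00936). Rps12 held 395 and 371 CPM against 489 and 432 CPM (0.28, adjusted p = 0.0276). Both KO libraries were above both WT libraries in each of these genes, which were named because they passed in these same libraries. Of the 4 X-linked members, Rpl10 (0.08, adjusted p = 0.428) and Rpl36a (-0.08, adjusted p = 0.543) did not pass. Among entries above 1 CPM on average, 33.4% of 560 on the X chromosome rose in this set (median 0.23), against 17.2% of 17211 on autosomes (median -0.03). Whether the X-linked members moved with their chromosome was not tested.

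The overlap of the falls in the 2 sets was given as a share of each list. 13 members fell in both (Rpl6, Rpl7a, Rpl10a, Rpl11, Rpl12, Rpl15, Rpl17, Rpl19, Rpl24, Rpl27, Rpl28, Rpl35a and Rps13), which is 36.1% of the members that fell in the Ythdc1 set and 56.5% of those that fell in the Mettl3 set. Over all 22499 entries tested in both sets these shares were 30.9% and 45.7%. Rps12 rose in both. Rpl39 and Rpl41 fell in the Ythdc1 and rose in the Mettl3 set. Across the 76 genes the log2 fold changes of the 2 sets had a Pearson correlation of 0.19, given as a description because genes are not replicates, and the sets share no library. The difference of the effects was tested directly in 1 fit of 12 libraries: the Ythdc1 effect was above the Mettl3 effect in 11 members (13.7% of 28260 entries) and below it in 7 (11.6% of all entries).

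The members with the largest differences were Rpl39 (-0.89, SE 0.121, adjusted p = 1.78e-05), Rpl41 (-0.64, adjusted p = 0.000374), Rps4x (-0.46, adjusted p = 0.000286), Rpl3 (-0.41) and Rpl37a (-0.33, adjusted p = 0.0155) on one side. Rpl13 (0.76, SE 0.105, adjusted p = 2.21e-05), Rpl23a (0.45, adjusted p = 0.00316), Rpl32 (0.42, adjusted p = 0.00112) and Rps7 (0.37, adjusted p = 0.0023) lay on the other. Rps27, which rose in the Ythdc1 set and did not pass in the Mettl3 set, also differed (0.37, adjusted p = 0.0143). For Rpl11 (-0.02, adjusted p = 0.93) and Rpl10a (0.03, adjusted p = 0.83) no difference passed, with standard errors of 0.097 and 0.0897.

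**Figure D4:**
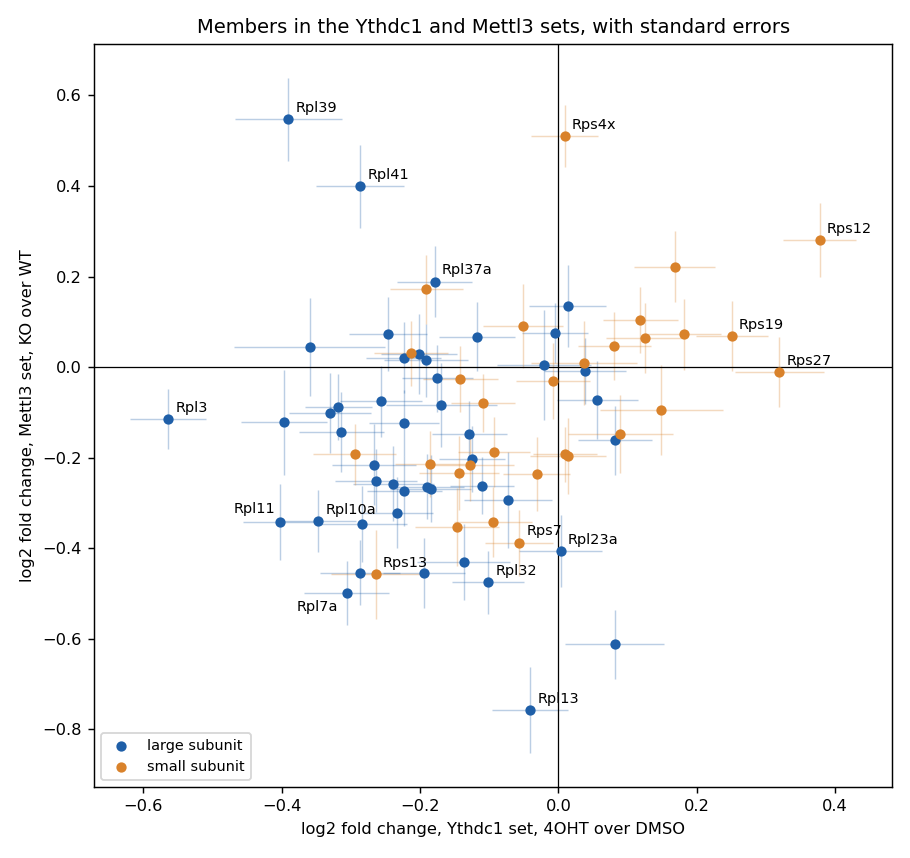
Log2 fold change of each of the 76 genes in the Ythdc1 set (horizontal axis) and the Mettl3 set (vertical axis), with standard errors of the fits as bars. Rpl39 and Rpl41 lie at the upper left, Rps12 at the upper right, and Rpl13 lies lowest with a Ythdc1 log2 fold change near 0.

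In the Dux set, whose 10 libraries share 1 estimate of the spread, few members passed. ESC markers summed to 2508 to 2648 CPM under DMSO and 1676 to 1985 CPM under 4OHT in Dux-Het cells, and to 2346 to 2783 and 1676 to 1785 CPM in Dux-KO cells. Fibroblast markers summed to 84.9 to 169.8 and 102 to 154 CPM in Dux-Het and, lower under 4OHT, to 151 to 192 and 94.98 to 95.34 CPM in Dux-KO cells, and the part of either list in the results was not tested. In Dux-Het cells no member rose or fell under 4OHT by edgeR's quasi-likelihood test, against 4.99% and 4.34% of 29322 entries. At an unadjusted p under 0.05 there were 12 members (15.8%, against 25.2% of all entries). DESeq2, and edgeR with no filter on low counts, each called 1 higher and 2 lower. The median log2 fold change was -0.11 over all members, -0.23 for the large and -0.06 for the small subunit. In Dux-KO cells Rps27 rose and Rpl3 fell (5.5% and 4.36% of entries rose and fell), with medians of 0.01 over all members, -0.10 for the large and 0.05 for the small subunit. Rps27 held 142 and 166 CPM under DMSO and 236 and 273 CPM under 4OHT in these cells (log2 fold change 0.77, SE 0.154, adjusted p = 0.0123), and 155 and 189 against 243 and 240.0 CPM in Dux-Het cells (0.51, adjusted p = 0.0626). Each of the 2 calls in Dux-KO cells was lost when at least 1 library of the Dux set was left out. The 2 DMSO libraries of Dux-KO cells differed more than any other pair within a group (chi-square over its degrees of freedom 99.1). This value does not tell which of them is unusual. With single libraries left out, the log2 fold change in Dux-KO cells ran from -0.95 to -0.424 for Rpl3 and from 0.629 to 0.845 for Rps27. In Dux-Het cells both 4OHT libraries were below both DMSO libraries in 36 members and above them in 7 (25.7% and 27.1% of entries). In Dux-KO cells this held for 18 and 15 members (29.0% and 31.1% of entries).

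Of the 36 members that fell in the Ythdc1 set, the share with a negative log2 fold change was near that of all entries in Dux-Het cells and below it in Dux-KO cells. In all, 33 had a negative log2 fold change in Dux-Het cells (91.7%; 91.5% of all entries that fell) and 25 in Dux-KO cells (69.4%; 89.5% of all entries that fell). The 5 members that rose had a positive log2 fold change in both, as had 84.4% of all entries that rose. Across the 76 genes the Pearson correlation with the Ythdc1 set was 0.72 for Dux-Het and 0.69 for Dux-KO cells, again a description, over libraries that are not shared. The 4OHT effect in Dux-KO minus that in Dux-Het cells passed for no member by edgeR (0.0% of entries) and for none by DESeq2. No member had an unadjusted p under 0.05 by edgeR, against 1.64% of all entries. Dux-KO against Dux-Het passed for no member under DMSO (0.0341% of entries) and for none under 4OHT (0.276%), and for none by DESeq2. At an unadjusted p under 0.05 by edgeR there were 0 members under DMSO (2.58% of entries) and 1 under 4OHT (2.98%). The median of the difference in effects was 0.10 in log2.

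**Figure D5:**
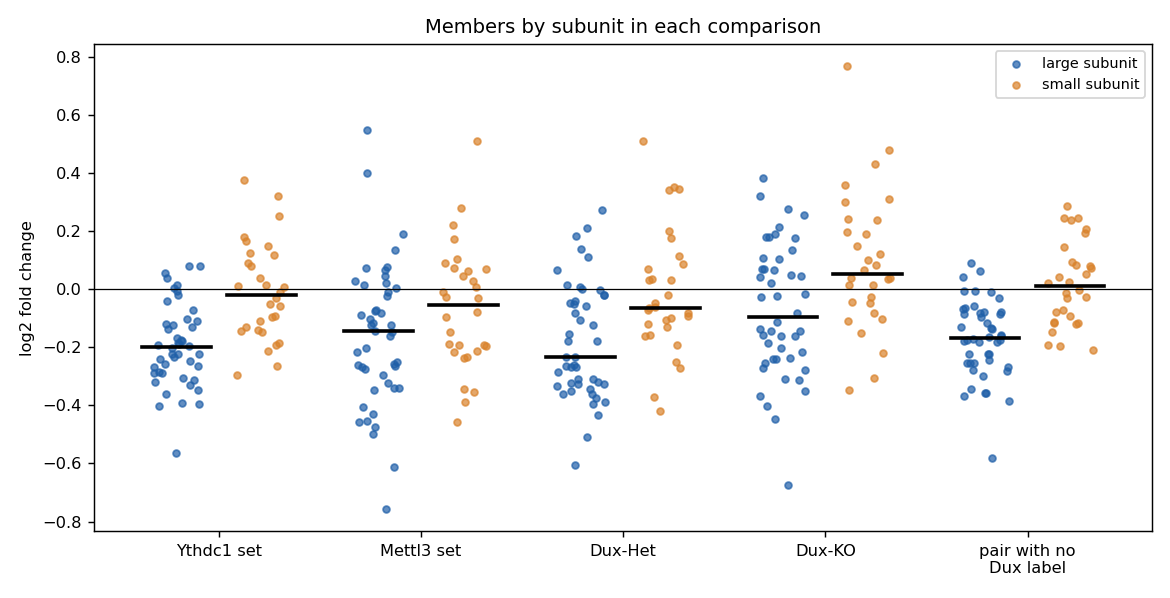
Log2 fold change of the 46 large (blue) and 30 small (orange) subunit genes in each comparison, with 1 point per gene and a black line at the median; the column of the unlabelled Dux pair rests on 1 library for each treatment. The large subunit median lies below the small subunit median in all 5 columns, at -0.20 and -0.02 in the Ythdc1 set.

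The pair with no Dux label has no replicate, and no test was made. Of the 76 genes 58 were lower under 4OHT, with a median log2 ratio of -0.11 (0.02 over all entries), -0.17 for the large and 0.01 for the small subunit. 6 members were at least 1.25-fold lower and none was as much higher, against 19.9% and 24.9% of entries. Rpl3 held 782 CPM (95% exact Poisson interval 773 to 791) under DMSO and 523 CPM (516 to 530) under 4OHT, the lowest log2 ratio at -0.58. Rps27 held 192 CPM (187 to 196) and 234 CPM (229 to 238), the highest at 0.29. The intervals cover counting error only.

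Other genes of the translation machinery were described by lists. For comparison, 21.4% of all entries fell and 23.7% rose in the Ythdc1 set, and 14.9% and 16.4% did in the Mettl3 set. Of 12 ribosomal protein genes and paralogs that the naming rule leaves out, 5 fell and 2 rose in the Ythdc1 set (median -0.12). Rpl22l1, the paralog of Rpl22, fell from 8.07, 9.66, 9.15 and 7.40 CPM to 3.43, 4.55, 2.91 and 4.23 CPM (log2 fold change -1.16, adjusted p = 1.47e-05). Rpl10l, a paralog of Rpl10 known from the testis, rose in both sets, with log2 fold changes of 0.81 (adjusted p = 0.000776) and, from 3.32 and 2.34 CPM in Mettl3 WT to 26.4 and 26.2 CPM in KO libraries, 3.24 (adjusted p = 9.64e-06). Rpl39l rose in the Mettl3 set (1.99, adjusted p = 0.00037). Of the 12 genes 3 fell and 2 rose in the Mettl3 set.

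Of 21 other genes with 5′TOP mRNAs 12 fell and 3 rose in the Ythdc1 set (median -0.21), and 8 fell and 1 rose in the Mettl3 set (median -0.24). Cct4, a chaperonin subunit (-0.70, adjusted p = 3.8e-08), and Eif4b, an initiation factor (-0.49, adjusted p = 8.67e-07), fell in the Ythdc1 set. Tpt1 (0.38, adjusted p = 9e-05) and the elongation factor gene Eef1a1 (0.19, adjusted p = 0.00135) rose there. Mitochondrial ribosomal protein genes fell in 36 and rose in 3 of 78 (median -0.19), and initiation factor genes fell in 27 and rose in 7 of 54 (median -0.19). The Mettl3 set had 17 falls and 12 rises among the mitochondrial ribosomal genes (21.8% and 15.4%, against 14.9% and 16.4% of all entries). It had 23 falls and 3 rises among the initiation factor genes (42.6% and 5.56%). Of 19 RNA polymerase I genes 4 fell and 2 rose in the Ythdc1 set (21.1% and 10.5%, against 21.4% and 23.7% of all entries). Their share of falls was near that of all entries. Of 17 mTOR pathway genes 6 fell and 7 rose (35.3% and 41.2%), among the former Larp1 (-0.27, adjusted p = 0.00025). Of 10 genes of ribosomal protein chaperones and the Mdm2 axis 5 fell and 1 rose in the Ythdc1 set. Of these Heatr3, a carrier of Rpl5, fell in the Ythdc1 (-0.26, adjusted p = 0.00888) and the Mettl3 set (-1.07, adjusted p = 9.29e-05).

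The annotation places 56 snoRNA entries of the table inside members, on their strand, in 29 host genes. 30 of them overlap an annotated exon of the host, so their reads and those of the host cannot be told apart. In the Ythdc1 set 7 snoRNAs fell and 4 rose (12.5% and 7.14%, below the 21.4% and 23.7% of all entries), and in the Mettl3 set 8 fell and 2 rose of 54 tested (14.8% and 3.70%, against 14.9% and 16.4%). Snord100 and Snora33, both in Rps12, rose with their host: Snord100 held 99.4 to 111 CPM under DMSO and 129 to 142 CPM under 4OHT (log2 fold change 0.40, adjusted p = 3.97e-05) and rose by 0.33 in the Mettl3 set (adjusted p = 0.0279). Snora33 rose by 0.32 (adjusted p = 0.00427) and 0.38 (adjusted p = 0.0376). Snord68, in Rpl13, fell from 35.4 and 32.4 to 19.4 and 16.4 CPM in the Mettl3 set (-0.91, adjusted p = 0.000709). Rpl3 differed: its intronic entry Gm22077 rose in the Ythdc1 set (0.37, adjusted p = 0.0356) while Rpl3 fell. Host genes and other members fell at similar shares in the Ythdc1 set (14 of 29 and 22 of 47). The counts were 12 of 29 hosts and 11 of 47 others in the Mettl3 set.

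Log2 fold changes showed little relation to the size or level of a member. Across the 76 genes the Pearson correlation in the Ythdc1 set was -0.03 with log2 exon length and 0.11 with log2 mean CPM, and in the Mettl3 set -0.09 and -0.17, as descriptions. Per kilobase of exon, mean levels over the 22 libraries ran from 19.3 CPM for Rps13 to 618 CPM for Rplp1, a 32.0-fold range. Rpl4 (526 CPM per kilobase) and Rps15 (503) followed Rplp1 at the top, and Rpl29 (26.5) and Rps15a (29.6) stood next to Rps13 at the bottom. The order of levels depends on the set: Rplp1 held 306 ± 23.8 CPM per kilobase in the Ythdc1 DMSO group (SD, n = 4) and 756 ± 33.2 in Mettl3 WT (SD, n = 2), so this order over all libraries is not that of each set. In the Ythdc1 DMSO group Rps2 was highest (653 ± 25.3 CPM per kilobase) and Rps15a lowest (16.99 ± 0.719; SD, n = 4). With the longest transcript as the length, Rps2 (705 CPM per kilobase) came before Rpl4 and Rplp1 over all libraries. Rps15a has 6270 bases of annotated exon, which lowers its value per kilobase.

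The member mean of log2 CPM over the 22 libraries was most closely followed by Etfa (Pearson correlation 0.976), Gm10020 (0.976) and Snora73a (0.970) among 11806 gene entries above 5 CPM on average, as a description over libraries that differ mainly by set. Pseudogene rows were taken by name, with Rpl or Rps at the start and -ps in the symbol, so pseudogenes under other names are not included. They took up 0.0801 ± 0.00139% (DMSO) and 0.0728 ± 0.00248% (4OHT) of counts in the Ythdc1 set (SD, n = 4 each). Of 146 such rows tested 6 rose and 4 fell (4.11% and 2.74%, against 23.7% and 21.4% of all entries). How reads that fit a member and its pseudogenes were counted is not known from the sources used here, so the level of any member is uncertain by that choice.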

How the data were processed

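Raw counts of genes and repeat families for 22 libraries are in a table the authors deposited. A second deposited table holds normalized signal, equal to those counts over a single factor for each library, and served only as an alternative scaling. Total RNA was depleted of rRNA with RNase H and sequenced as paired ends, per the labels' protocols. bcl2fastq, STAR 2.7, Bowtie2, RSEM and mm10 are named in the submitters' processing notes. Not given in the sources used here are the counting tool, its use of strand and of multiply mapped reads, and the annotation.

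Columns of the Ythdc1 set carry no ESC line and were mapped by group. For the Dux libraries the genotype and treatment fields are shifted by 1 sample against the titles, and the titles, which match the columns, were used. Whether replicates are separate cultures is not stated, and p-values therefore reflect only how far these samples differ, which may be technical. Libraries of 1 group differed by more than counting error (chi-square over its degrees of freedom 3.74 to 99.1).

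Tests used edgeR 4.0.16 in R 4.3.3 (filterByExpr, TMM, glmQLFit, glmQLFTest; adjusted p under 0.05 over all entries), tested on simulated data. The Ythdc1, Mettl3 and Dux sets were fitted apart, and 1 fit of 12 libraries tested the difference of effects. Standard errors were derived from the log2 fold change and its F statistic. Fits with DESeq2 1.42.0, other scalings, no filter, a replicate block and single libraries left out were the alternatives. The ratio of single libraries used a pseudocount of 0.5 CPM. Positions and exon lengths are from GENCODE vM21 (GRCm38), start sequences from RefSeq (GRCm38.p6). Some members are counted in the totals but not reported singly here. The members and lists were chosen with earlier results of these data known. Named are, per comparison, the 5 members with the largest rise and fall among those that passed, members with fixed roles (P stalk, Mdm2 binders, decoding site, exit tunnel, X-linked, with a paralog), the extremes per kilobase and the 3 nearest profiles. Rpl10a, the genes of the lists and the snoRNAs named were picked after their values were seen, and the limit of 5 CPM for the nearest profiles was set then as well.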

Additional observations from a re-analysis of the deposited data

Results flagged for a closer look

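Within the groups of 4 libraries, 72 checks for a library far from the other 3 were made on named members and summed values, and chance marks about 1 in 20 groups. 4 were marked. Under DMSO in the Ythdc1 set, library 1 was high for Rps27 (101.7 CPM) and for Rps7 (349.1 CPM). Under 4OHT, library 4 was low for Rpl37a (147.8 CPM), and library 1 was low for Rps2 (974.7 CPM). The rise of Rps27 and the fall of Rps2 passed with each library left out in turn, as did that of Rpl37a.

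The Ythdc1 effect minus the Mettl3 effect passed edgeR's test for 10 of the named members. It was above 0 in log2 for Rpl13 (0.759), Rpl23a (0.453), Rpl32 (0.417), Rps7 (0.373) and Rps27 (0.373). It was below 0 for Rpl39 (-0.895), Rpl41 (-0.643), Rps4x (-0.458), Rpl3 (-0.407) and Rpl37a (-0.325). The Mettl3 arm rests on 2 libraries a group, 1 of them labelled KO with Mettl3 transcripts near the WT level.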

How the results depend on the processing

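In the Ythdc1 set 37 of the 41 calls were kept with each of the 8 libraries left out in turn (4 to 8 members higher and 33 to 36 lower, with 8 higher without DMSO library 1), and 39 under 4 scalings. The median log2 fold change of the members was -0.16 to -0.11 without single libraries. In the Mettl3 set leaving out 1 library gave 0 to 10 members higher and 0 to 41 lower; with 1 library left in a group, that library is assumed to vary like the others. The same step gave 0 to 2 lower and 0 higher in Dux-Het cells, 0 to 1 higher and 0 to 4 lower in Dux-KO cells (4 without DMSO library 2, with a median of -0.128), and 4 to 13 above and 6 to 9 below for the Ythdc1 effect minus the Mettl3 effect. The 11 members above in that difference became 7 with the size factors of DESeq2, 6 with the authors' factors and 6 with no filter. The Dux-Het counts became 1 higher and 2 lower with no filter and with DESeq2, and in Dux-KO cells 2 were lower with no filter. Over gene entries alone, entries that match no gene symbol, repeat families among them, leave the total. The change in the summed share then turned from -6.35% to 0.05% in the Ythdc1 set, and was -0.13% without mitochondrially encoded genes. In Dux-KO cells these values were 8.89% and 9.47%, against 1.4%. With medians of CPM in place of sums, the ratio of large to small subunit changed by -6.07% in the Ythdc1 set and -11.63% in the Mettl3 set. It changed by -6.94% in Dux-Het and -6.96% in Dux-KO cells. By medians the Ythdc1 groups overlapped, as did the Dux-KO groups. The medians, like the ratio without Rpl3, were chosen after seeing the data.

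Same-numbered libraries of the Ythdc1 set correlated in their deviations at 0.308, 0.0639, 0.306 and 0.291, and 7 of 8 libraries correlated best with their own number. The value was 0.529 in Dux-Het cells, 0.235 in Dux-KO cells and 0.0618 in the Mettl3 set. The labels do not say whether the numbers pair the samples. The main fits left a pairing out, and their counts may differ from those of a paired design. With a replicate block, 6 members rose and 43 fell in the Ythdc1 set, 4 rose and 25 fell in the Mettl3 set, 1 was higher and 3 lower in Dux-Het cells, and 17 members were above and 7 below for the difference of effects. Except where a value is given for it, the cause of a change with the setting was not tested. Counts of members under the alternative settings, leaving out single libraries among them, stand without the share of all entries called there. A shift particular to the members cannot be read from these counts. The Mettl3 and Dux sets have 2 libraries a group, which limits the precision of each difference, and a difference that did not pass there is not shown to be absent.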
